A study of Mus musculus with 6 samples.

Results

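The miR-200 family was followed in small RNA libraries of the nucleus accumbens (NAc), a forebrain region involved in reward. The members were all miRNAs of the count table named miR-200a, miR-200b, miR-200c, miR-141 or miR-429, with either arm. This gave 8 of the 1364 miRNAs listed, and each of the 8 had at least 1 count in some library. The tissue came from adult male C57BL/6N mice of 7 to 8 weeks trained in conditioned place preference (CPP), a test in which an animal learns to link a compartment with a drug. Conditioning lasted 6 days, with 10 mg/kg morphine or saline given intraperitoneally in sessions that alternated between morning and afternoon. The morphine group thus had saline-paired sessions beside its morphine-paired ones, and the saline group received saline. NAc tissue was taken 0.5 h after the test on day 7. There were 3 libraries in each group, and no allele or other agent is named for either. The sample records give 6 mice per group, while a legend of the study names 1 mouse per library, so the pooling of animals is not settled, and the p-values measure the spread between these libraries.

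miR-200 family members come from 2 transcription units and are hallmark miRNAs of epithelial cells. They are best known for repressing Zeb1 and Zeb2, transcription factors that switch off epithelial genes and also silence the family's own genes. In the nervous system the family is known from olfactory neurogenesis and sensory epithelia, and it is a low-abundance family in brain tissue rich in neurons. In bulk tissue a change in the number of cells that carry a miRNA and a change in its amount per cell cannot be told apart.

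The members are shown with their seed, bases 2 to 8, in capitals, because the seed sets which targets a miRNA pairs with and splits the family into groups that cross the genomic loci. All 8 names matched a mature miRNA of RefSeq (GRCm38.p6). The 3p arms, which are the main products, fall into a pair of seed groups. miR-200b-3p, miR-200c-3p and miR-429-3p share one seed.
mmu-miR-200b-3p: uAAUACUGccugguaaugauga
mmu-miR-429-3p: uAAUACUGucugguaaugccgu
mmu-miR-200c-3p: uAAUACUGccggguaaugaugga
miR-200a-3p and miR-141-3p share the other seed.
mmu-miR-200a-3p: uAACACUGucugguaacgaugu
mmu-miR-141-3p: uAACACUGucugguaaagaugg
The 5p arms carry other seeds and are the less abundant products of their hairpins.
mmu-miR-200a-5p: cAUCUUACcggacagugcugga
mmu-miR-200b-5p: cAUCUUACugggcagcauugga
mmu-miR-141-5p: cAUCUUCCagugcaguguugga
Counting from 1 at the 5′ end, the 3p seed groups differ by U4C between miR-200b-3p and miR-200a-3p. No other of the 1679 mature mouse miRNAs in RefSeq has any of these seeds. Within each 3p seed group the closest relatives from different loci differ by 2 of 22 bases compared. These are U11G and A22G between miR-200b-3p and miR-200c-3p, and C17A and U22G between miR-200a-3p and miR-141-3p. The mismatches that the authors' read matching allowed are not given in the sources used here, so these pairs may share some reads.

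The hairpins lie in 2 clusters of GRCm38, all on the minus strand. Mir200b, Mir200a and Mir429 lie on chromosome 4 from 156053905 to 156055750, a span of 1846 bases, in introns of Ttll10, a tubulin ligase-like gene on the same strand in the GENCODE vM21 annotation. Mir429 also overlaps an exon of the non-coding gene Gm13648, and the other two lie in its introns. Mir200c and Mir141 lie on chromosome 6 from 124717914 to 124718390, a span of 477 bases, in introns of the non-coding gene Gm15884. Mir141 also overlaps an exon of Gm29008, and the nearest protein-coding gene to both is Phb2. The hairpins of miR-200a and miR-200b are given with both arms in capitals, because the arms of each were counted separately.
Mir200a: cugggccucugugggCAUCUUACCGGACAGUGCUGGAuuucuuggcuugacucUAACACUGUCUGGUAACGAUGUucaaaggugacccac
Mir200b: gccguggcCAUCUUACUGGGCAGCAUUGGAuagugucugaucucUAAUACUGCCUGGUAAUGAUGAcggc

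The total count per library was between 4183333 and 9842050, and 3 counts corresponded to between 0.305 and 0.717 counts per M counts of the library. Such limits and the intervals given here cover counting error only. CPM values here carry TMM scaling, whose factors were 1.31, 0.80 and 1.32 in saline replicates 1, 2 and 3 and 0.92, 0.94 and 0.84 in morphine replicates 1, 2 and 3. The neuronal miRNAs miR-124-3p, miR-128-3p, miR-137-3p, miR-138-5p, miR-132-3p and miR-9-5p together held between 130751 and 273945 CPM in a library, so the neuronal markers of the tissue were present. Of these 6, miR-124-3p was called lower in the morphine group and the others were not called. A miRNA counted as a DEmiRNA where its |log2 fold change| reached 0.58 and edgeR's quasi-likelihood test, fitted over all 1364 miRNAs, gave a p no larger than 0.05 before adjustment. By these criteria 264 miRNAs, or 19.4%, were called, 132 of them higher in the morphine group. With scaling by library totals 34.9% of the calls were higher and the median log2 fold change of all miRNAs was -0.40, against -0.15 with TMM. Without saline replicate 2 the number of calls was 492.

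The family was a small part of the NAc miRNAs and one library held most of it. Its 8 members together had 209, 254 and 86 counts in saline replicates 1, 2 and 3, and 2354, 240 and 359 counts in morphine replicates 1, 2 and 3. The summed level was 38.3, 38.1 and 9.02 CPM in the saline libraries. It was 260.4, 35.2 and 56.4 CPM in the morphine libraries. Morphine replicate 1 was thus far above the other 5 libraries, while morphine replicate 2 lay below the higher saline libraries. The order of those 5 depended on the scaling. As an unscaled share of the library, saline replicate 1 (0.00500%) was above morphine replicate 3 (0.00475%). Morphine replicate 2 (0.00329%) was then above saline replicate 2 (0.00305%). At most 0.0239% of the counts of a library came from the family.

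Of the 8 members, 5 were called higher in the morphine group and 0 lower, against 9.68% called higher among all miRNAs. The 5 were the miR-200a, miR-200b and miR-429 products of the chromosome 4 cluster, and none of the 3 products of the chromosome 6 cluster was called. With Benjamini-Hochberg adjustment over all miRNAs, 1 member, miR-200a-5p, had an adjusted p under 0.05, against 5.21% of all miRNAs in either direction and 3.08% in the higher direction. The median log2 fold change of the 8 members was 2.21, or 1.10 with miR-200b-5p and miR-141-5p, for which no fold change is given, set to 0. The median over all 1364 miRNAs was -0.15. Without morphine replicate 1 the number of members called was 1 of 8, while 13.3% of all miRNAs were called in either direction and 7.95% higher. That member was miR-200a-5p. With edgeR, 0 members and 0 of all miRNAs then had an adjusted p under 0.05, while 176 miRNAs met the unadjusted criteria.

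**Figure D1:**
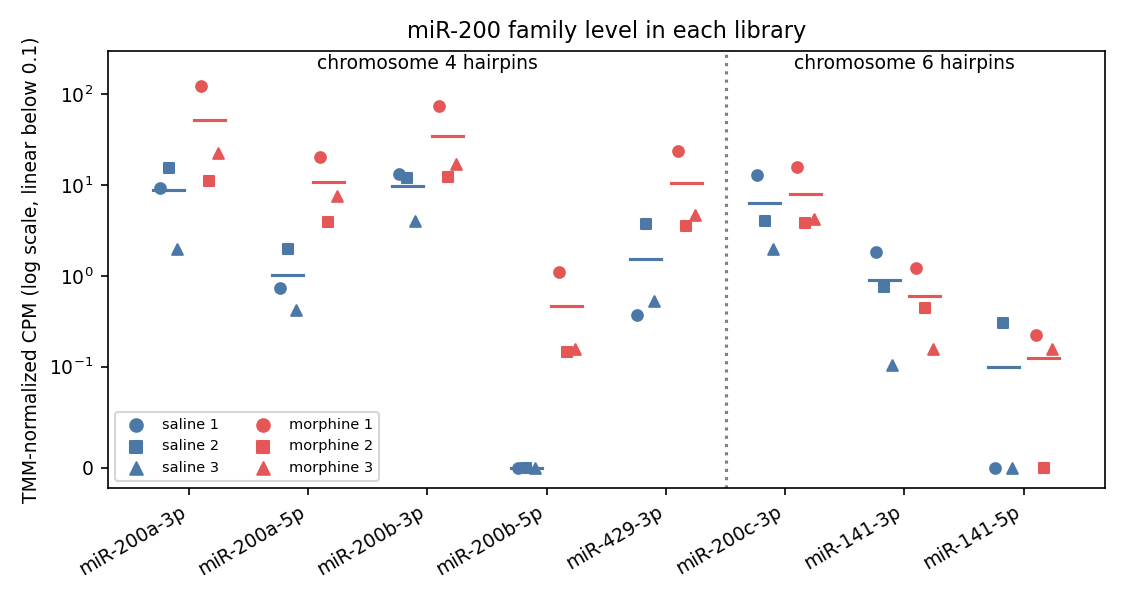
TMM-normalized level (CPM, log scale that is linear below 0.1) of each of the 8 miR-200 family members in the 3 saline and 3 morphine libraries; each point is a library, the marker shape gives the replicate number and horizontal bars are group means. Morphine replicate 1 is the highest library for each member except miR-141-3p and miR-141-5p, for miR-200c-3p only after TMM scaling. The groups do not overlap for miR-200a-5p and for miR-200b-5p, which has 12 counts in all.

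mmu-miR-200a-3p, the main product of Mir200a and the most abundant member in morphine replicate 1, had 50, 102 and 19 counts in saline replicates 1, 2 and 3. It had 1114, 75 and 142 counts in morphine replicates 1, 2 and 3. After scaling the levels were 9.15, 15.3 and 1.99 CPM against 123.2, 11.0 and 22.3 CPM. Morphine replicates 1 and 3 were above every saline library, while morphine replicate 2 lay between saline replicates 1 and 2, so the groups overlapped. The group means were 8.81 ± 6.66 CPM for saline (SD, n = 3) and 52.2 ± 61.8 CPM for morphine (SD, n = 3), a log2 fold change of 2.57 ± 0.75 (SE, edgeR adjusted p = 0.0511). Without morphine replicate 1 the log2 fold change was 1.01 (SE 0.82) and the call was lost. Without saline replicate 2 it was 3.28. With both of these libraries left out it was 1.63 (SE 0.43) and was called, as were 458 of all 1273 miRNAs then fitted.

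mmu-miR-200a-5p, the strand opposite miR-200a-3p in the same hairpin, had the change least tied to a single library. It was counted 4, 13 and 4 times in saline replicates 1, 2 and 3 and 185, 27 and 48 times in morphine replicates 1, 2 and 3. The levels were 0.732, 1.95 and 0.420 CPM in the saline libraries and 20.5, 3.96 and 7.54 CPM in the morphine libraries. Every morphine library was above every saline library, as was the case for 12.2% of all miRNAs, while 0 members and 9.9% of all miRNAs had every morphine library below. The group means were 1.03 ± 0.808 CPM for saline (SD, n = 3) and 10.7 ± 8.68 CPM for morphine (SD, n = 3), a log2 fold change of 3.37 ± 0.75 (SE, edgeR adjusted p = 0.0133). Without morphine replicate 1 it was 2.56 (SE 0.83), which met the criteria on the unadjusted p, with an adjusted p of 0.253 by edgeR. Without saline replicate 2, the highest of the saline libraries, it was 4.26.

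mmu-miR-200b-3p shares its seed with miR-429-3p and miR-200c-3p and was the most abundant member in the saline group. Its counts were 72, 80 and 38 in saline replicates 1, 2 and 3 and 676, 84 and 109 in morphine replicates 1, 2 and 3. The levels were 13.2, 11.998 and 3.99 CPM against 74.8, 12.3 and 17.1 CPM. Morphine replicate 2 was level with saline replicates 1 and 2, and the groups overlapped there. Without TMM scaling morphine replicate 3 (14.4 counts per M counts) also lay below saline replicate 1 (17.2 counts per M counts). This gave a log2 fold change of 1.84 ± 0.66 (SE, edgeR adjusted p = 0.107). Without morphine replicate 1 it was 0.69 (SE 0.67) and was not called. The call was also lost with all 6 libraries when miRNAs under 10 counts in total were left out, at a log2 fold change of 1.79 (SE 0.78).

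mmu-miR-429-3p, the third product of the chromosome 4 cluster, was counted 2, 25 and 5 times in the saline group and 212, 24 and 30 times in the morphine group. The levels were 0.366, 3.75 and 0.524 CPM against 23.5, 3.52 and 4.71 CPM. Saline replicate 2 lay within the morphine range, above morphine replicate 2, and the other saline libraries lay below it. The fitted log2 fold change was 2.77 ± 0.83 (SE, edgeR adjusted p = 0.0543). It was 1.52 (SE 1.01) without morphine replicate 1, where the call was lost, and 4.49 without saline replicate 2. With both left out it was 3.11 (SE 0.75) and was called, as were 458 of all 1273 miRNAs then fitted.

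mmu-miR-200b-5p, the rare strand of Mir200b, had 0 counts in every saline library, where the 3 counts taken as the limit of a count of 0 correspond to between 0.360 and 0.717 counts per M. It had 10, 1 and 1 counts in morphine replicates 1, 2 and 3. Only morphine replicate 1 was above 3 counts, so no fold change is given. The edgeR criteria called it (edgeR adjusted p = 0.147), a call that rests on 12 counts in all. The Wald test of DESeq2 did not call it, nor did the edgeR test without morphine replicate 1.

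The products of the chromosome 6 cluster gave no call. mmu-miR-200c-3p, which has the same seed as miR-200b-3p, was counted 71, 27 and 19 times in the saline group and 144, 26 and 27 times in the morphine group. The levels were 12.996, 4.05 and 1.99 CPM against 15.9, 3.81 and 4.24 CPM. Morphine replicate 1 and saline replicate 1 were the high libraries, and the rest of the morphine libraries lay beside saline replicate 2. The log2 fold change of 0.35 ± 0.73 (SE, edgeR adjusted p = 0.799) turned to -0.0398 with library totals, -0.0363 with upper quartile scaling, -0.56 without morphine replicate 1 and -0.046 without saline replicate 3. Without saline replicate 1 it was 1.496 (SE 0.71) and met the criteria, with an adjusted p of 0.251 by edgeR.

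mmu-miR-141-3p, which has the seed of miR-200a-3p, was counted 10, 5 and 1 times in the saline group and 11, 3 and 1 times in the morphine group. The log2 fold change of -0.45 ± 1.09 (SE, edgeR adjusted p = 0.818) turned to 0.68 without saline replicate 1. miR-141-5p had 0, 2 and 0 counts against 2, 0 and 1 counts, at or under 3 counts in each library, and no fold change is given. Neither miR-141 product was called, which does not show that their levels were alike.

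**Figure D2:**
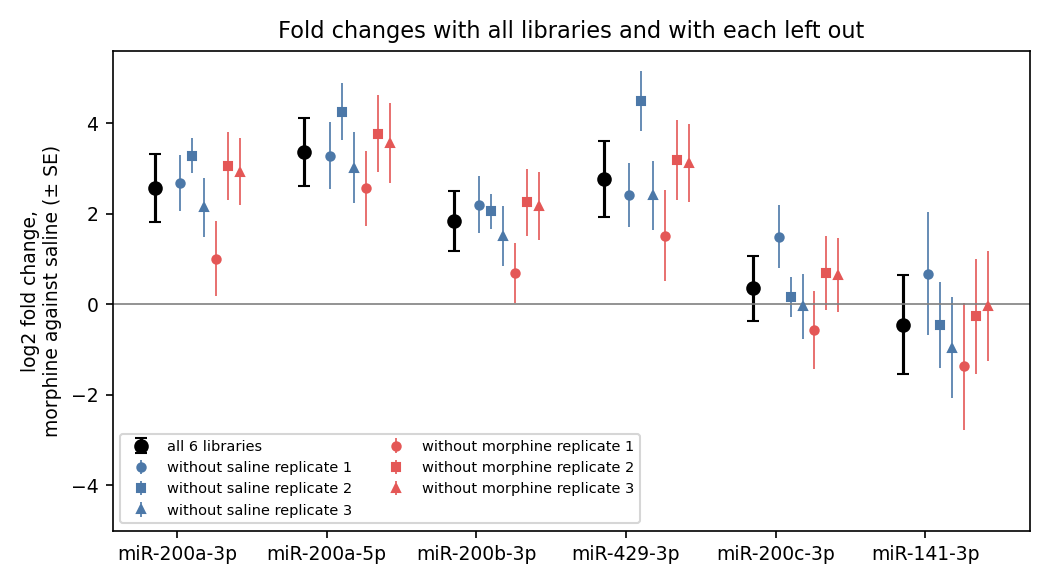
Log2 fold change of 6 members between the morphine and saline groups, with its standard error, from edgeR with all 6 libraries (black) and with each library left out (colour and marker give the library). Leaving out morphine replicate 1 gives the lowest value for each of the 4 chromosome 4 products drawn, down to 1.01 for miR-200a-3p and 0.69 for miR-200b-3p, and leaving out saline replicate 2 gives 4.49 for miR-429-3p.

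The order of the group means is given as a description, since neighbours in it were mostly within the spread of the libraries. Mature miRNAs of the family are 22 or 23 bases long, so their CPM can be set side by side, with the reserve that libraries capture some sequences better than others. The saline means ran from 9.72 CPM (SD 5.002, n = 3) for miR-200b-3p through 8.81 CPM for miR-200a-3p and 6.35 CPM (SD 5.85, n = 3) for miR-200c-3p to 1.55 CPM (SD 1.91, n = 3) for miR-429-3p and 1.03 CPM for miR-200a-5p. The first 3 of these did not differ beyond their spread. Among the morphine means miR-200a-3p stood at 52.2 CPM and miR-200b-3p at 34.7 CPM (SD 34.8, n = 3), followed by miR-200a-5p at 10.7 CPM, miR-429-3p at 10.6 CPM (SD 11.2, n = 3) and miR-200c-3p at 7.99 CPM (SD 6.88, n = 3). In each of these 5 morphine replicate 1 stood above the other morphine libraries. First place did not follow the group by library, since miR-200b-3p led miR-200a-3p in morphine replicate 2 (12.3 against 11.0 CPM) and miR-200a-3p led in saline replicate 2 (15.3 against 11.998 CPM). For miR-141-3p the mean was 0.895 CPM (SD 0.872, n = 3) with saline and 0.604 CPM (SD 0.549, n = 3) with morphine.

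Whether the chromosome 4 products differed from those of chromosome 6 was examined inside each library, where scaling between libraries plays no part. The chromosome 4 cluster gave 61.2%, 86.6% and 76.7% of the family's counts in saline replicates 1, 2 and 3. In morphine replicates 1, 2 and 3 it gave 93.3%, 87.9% and 91.9%. The groups did not overlap, with saline replicate 2 only just below morphine replicate 2. miR-200b-3p had 1.01, 2.96 and 2 counts per count of miR-200c-3p in saline replicates 1, 2 and 3, against 4.69, 3.23 and 4.04 in morphine replicates 1, 2 and 3. The log2 ratio was higher in the morphine group by 1.12 (exact permutation test, two-sided, p = 0.1, adjusted p = 0.2 over 3 such ratios), and no smaller p is possible with groups of 3. Without morphine replicate 1 the value was 0.99, and without saline replicate 1, where the ratio was lowest, it was 0.70. For miR-200a-3p and miR-429-3p the log2 ratios to miR-200c-3p were higher by 1.82 and 2.59, but saline replicate 2 overlapped the morphine libraries in both (exact permutation test, p = 0.2 for each). A difference between the clusters was therefore not shown at a threshold of 0.05, which a design of 3 against 3 cannot reach with this test.

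The seed groups gave a different split. The seed of miR-200a-3p and miR-141-3p took 28.7%, 42.1% and 23.3% of the family's counts with saline, against 47.8%, 32.5% and 39.8% with morphine, and the groups overlapped. The seed of miR-200b-3p, miR-200c-3p and miR-429-3p took 69.4%, 52.0% and 72.1% against 43.8%, 55.8% and 46.2%. Morphine replicate 1 was the only library in which the seed of miR-200a-3p had more counts than that of miR-200b-3p.

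The arms of Mir200a were set against each other in the same way. The 5p arm held 7.41%, 11.3% and 17.4% of the miR-200a counts in saline replicates 1, 2 and 3, with exact 95% binomial intervals from 2.06% to 17.9%, from 6.16% to 18.6% and from 4.95% to 38.8%. It held 14.2%, 26.5% and 25.3% in morphine replicates 1, 2 and 3, with intervals from 12.4% to 16.3%, from 18.2% to 36.1% and from 19.3% to 32.1%. Morphine replicates 2 and 3 had the highest shares, while morphine replicate 1, which had by far the most miR-200a, lay among the saline libraries. The mean share was 12.03% (SD 5.03, n = 3) with saline and 22.0% (SD 6.74, n = 3) with morphine, a difference of 9.96 percentage points that did not pass the test (exact permutation test, two-sided, p = 0.2, adjusted p = 0.2 over both hairpins). For miR-200b the 5p share was 0% in the saline libraries, of 72, 80 and 38 counts, with upper limits of 4.99%, 4.51% and 9.25%. It was 1.46%, 1.18% and 0.909% in the morphine libraries, within those limits (exact permutation test, two-sided, p = 0.1, the smallest that 3 against 3 allow, adjusted p = 0.2).

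**Figure D3:**
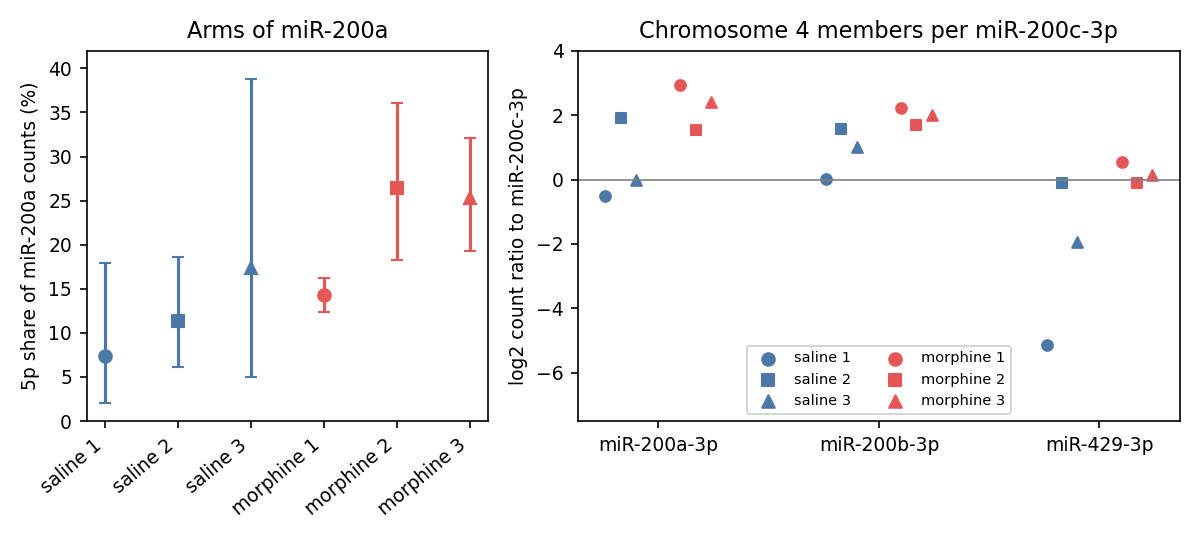
Left, share of the 5p arm among miR-200a counts in each library (%), with exact 95% binomial intervals; right, log2 ratio of the counts of miR-200a-3p, miR-200b-3p and miR-429-3p to those of miR-200c-3p in each library. The 5p share is highest in morphine replicates 2 and 3 at 26.5% and 25.3%, and only the ratio of miR-200b-3p has every morphine library above every saline library.

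The place of morphine replicate 1 was compared with the rest of the table. For the 544 miRNAs whose counts summed to 100 or more, the level in this library was 1.04 times the mean of morphine replicates 2 and 3 at the median, with quartiles of 0.823 and 1.36. The ratio was 7.40 for miR-200a-3p, 5.70 for miR-429-3p, 5.08 for miR-200b-3p, 3.96 for miR-200c-3p and 3.56 for miR-200a-5p. Of these, miR-429-3p and miR-200a-5p reached 100 counts only through morphine replicate 1, with 86 and 96 counts in the other libraries, so their place among the 544 is partly fixed by that minimum. With the minimum applied to the other 5 libraries, a choice made after seeing the data, 513 miRNAs and 3 members remained. Among the 513, miR-200a-3p ranked 2, miR-200b-3p ranked 7 and miR-200c-3p ranked 10. Morphine replicate 1 was the highest of the 6 libraries for these 3 members and for 16.0% of the 513 miRNAs. The chromosome 6 product miR-200c-3p shared in this excess although it gave no call between the groups.

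**Figure D4:**
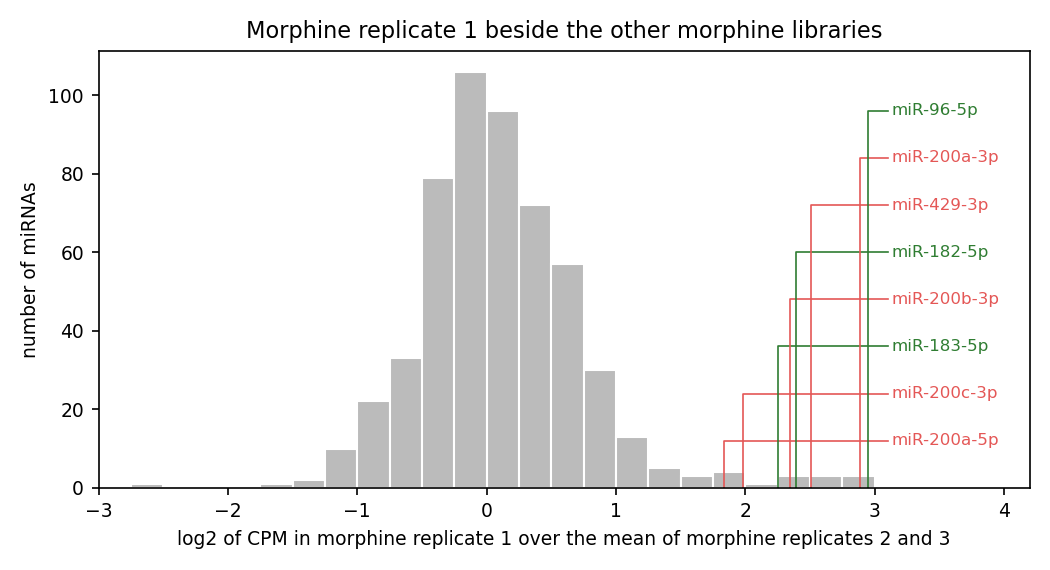
Distribution over the 544 miRNAs with at least 100 counts of the log2 ratio of the CPM in morphine replicate 1 to the mean CPM of morphine replicates 2 and 3; lines mark 5 members of the family (red) and the miR-183, miR-96 and miR-182 products (green). Most miRNAs lie around 0 (median ratio 1.04), and the marked miRNAs lie at the upper end, with ratios from 3.56 to 7.71.

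The miRNAs whose levels over the 6 libraries were most like those of the family were led by the miR-183 cluster. The measure was Pearson's r of log2(CPM + 1) with the mean standardized profile of the 5 members with at least 100 counts. It ran over 6 libraries and 535 other miRBase miRNAs, as a description that the high value of morphine replicate 1 weighs on. Of those 5, miR-429-3p and miR-200a-5p reached 100 counts only through morphine replicate 1, with 86 and 96 counts in the other libraries. The 535 were chosen with the same minimum. A high value in that library is therefore partly fixed in the profile and in the r values, those within the family included. miR-182-5p had an r of 0.997, miR-96-5p of 0.985 and miR-183-5p of 0.916, and these 3 products of that cluster, known from hair cells, photoreceptors and other sensory cells, ranked 1, 2 and 5. The others were miR-34a-5p (0.942), miR-199a-3p (0.942), miR-143-5p (0.908), miR-15b-5p (0.907), miR-199a-5p (0.901), miR-30c-5p (0.887) and miR-451a (0.880). Within the family, each member was set against the mean profile of the other 4 so that it did not enter its own reference. There r was 0.994 for miR-200b-3p, 0.988 for miR-200a-3p, 0.882 for miR-200a-5p, 0.864 for miR-429-3p and 0.612 for miR-200c-3p.

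miR-182-5p was counted 153, 196 and 113 times in the saline group and 1654, 189 and 267 times in the morphine group, a log2 fold change of 1.87 ± 0.62 (SE, edgeR adjusted p = 0.0849). miR-96-5p was counted 28, 23 and 3 times against 331, 22 and 40 times, a log2 fold change of 2.40 ± 0.83 (SE, edgeR adjusted p = 0.1003). miR-183-5p had 149, 193 and 128 counts against 1063, 91 and 230 counts and was not called. Morphine replicate 1 was high for all 3. Morphine replicate 2 lay within the saline range or below it, as it did for the 3p products of the chromosome 4 cluster. Of the 10 closest miRNAs 5 were called, all higher, against 19.4% of all miRNAs called and 9.68% called higher. The 10 were chosen for likeness to a profile made mostly of members called higher. Their calls and the order of their groups are therefore partly fixed by that choice. Beside miR-182-5p and miR-96-5p, those called were miR-199a-3p (1.86 ± 0.55), miR-451a (1.57 ± 0.51) and miR-143-5p (1.65 ± 0.71, log2 fold change and SE). For miR-199a-3p, miR-451a and the uncalled miR-15b-5p and miR-30c-5p every morphine library was above every saline library, as for 12.2% of all miRNAs.

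**Figure D5:**
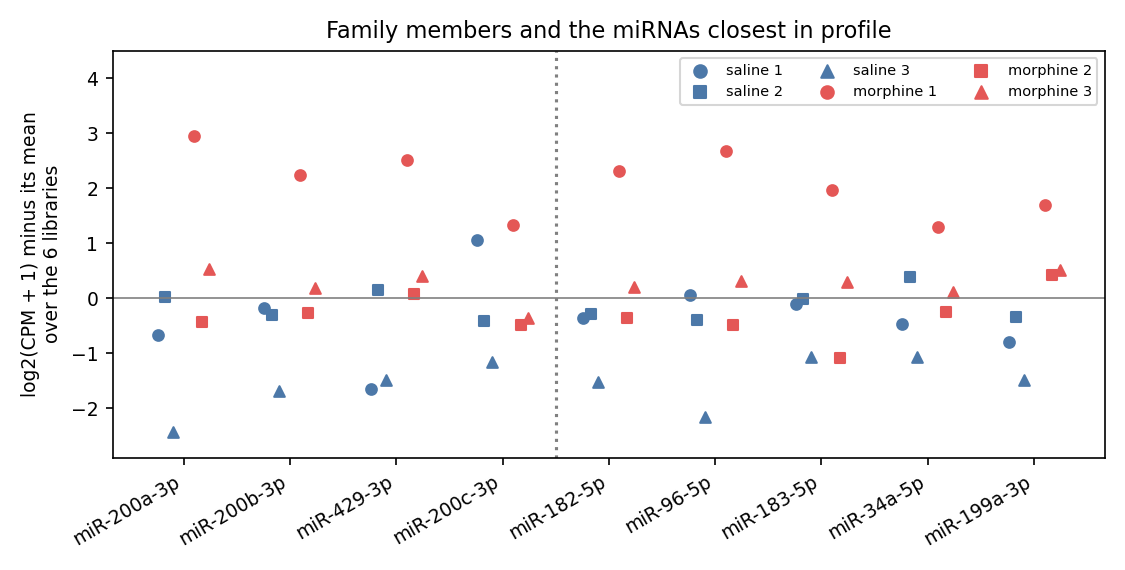
Log2(CPM + 1) in each library, less its mean over the 6 libraries, for 4 family members (left of the dotted line) and for the 5 other miRNAs closest to the family's mean profile; colour gives the group and marker shape the replicate. Morphine replicate 1 is the highest library for each miRNA drawn, for miR-200c-3p only after TMM scaling. Saline replicate 1 is nearly as high as morphine replicate 1 only for miR-200c-3p.

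Markers of other cells that a NAc dissection could hold were given as lists, none of them for vessels, connective tissue or blood. Among all miRNAs 9.68% were called higher and 9.68% lower, so a single call in a list of 7 or 8 is near those shares. The list for sensory epithelium, retina and pineal gland, which is the miR-183 cluster, had 4 of 6 members in the table, of which 2 were called higher. Its summed level was 25.6 to 61.8 CPM in the saline libraries and 44.2 to 337.3 CPM in the morphine libraries, and 5.24 times higher in morphine replicate 1 than in the mean of the other morphine libraries. For choroid plexus epithelium, whose defining miRNA is miR-204-5p, 1 of 4 members was called, miR-204-5p itself, and it was lower. The summed level of that list was 1231 to 2626 CPM in the saline libraries and 645 to 772 CPM in the morphine libraries, and in morphine replicate 1 it was 0.900 times that of the others. For multiciliated cells of the ependyma, 1 of 7 listed in the table was called higher, miR-34b-3p, and the sums were 77.97 to 879 CPM against 281 to 423 CPM.

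For stratified epithelium, marked by miR-203 and miR-205, 0 of 3 were called by edgeR's unadjusted criteria, at sums of 41.2 to 161.4 CPM against 46.9 to 90.8 CPM. The list's sum in morphine replicate 1 was 1.63 times the mean of the other morphine libraries. The defining miR-205-5p was counted 6, 1 and 12 times in the saline group and 11, 1 and 1 times in the morphine group, and miR-203-5p 4, 4 and 1 times against 9, 0 and 0 times, so both were highest among the morphine libraries in replicate 1. The same ratio was 0.969 for the multiciliated list, 0.450 for miR-375-3p and 1.36 for the gut, kidney and liver list. The pituitary and islet miRNA miR-375-3p was at 20.4 to 37.9 CPM against 10.7 to 29.4 CPM and was not called. For gut, kidney and liver epithelium, 1 of 8 was called higher, miR-194-5p, and 1 lower, miR-122-5p. The sums of this last list were 193.8 to 874 CPM against 361 to 508 CPM. Near-absent markers, with at most 3 counts in every library, were 1 choroid plexus, 2 multiciliated, 1 sensory and 3 gut, kidney and liver miRNAs. The part of any of these cell types in the levels of the miR-200 family was not tested.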

How the data were processed

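Small RNA was sequenced by the authors from 3 μg of total RNA per library. They discarded reads that held adapters or poly-N, were of low quality or fell outside 15 to 35 nt, filtered other RNA classes and repeats with Bowtie and compared the rest with miRBase. The authors deposited raw read counts per miRNA and library, and TPM values that the deposited counts reproduce when scaled to each library's total and that entered no test. The counting tool, genome build and miRBase release are not given in the sources used here. Libraries were assigned from the sample titles and column names (0 columns not used).

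With TMM scaling and no covariate, edgeR 4.0.16 (R 4.3.3) fitted all 1364 miRNAs by its quasi-likelihood test, with Benjamini-Hochberg adjustment over all. The fit was tested on simulated data. Ratios inside a library were compared with exact two-sided permutation tests in scipy 1.17.1. The ratios to miR-200c-3p were chosen after the data were seen.

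The members named were those of the family, the marker lists and the 10 closest profiles. Members, lists and rules were chosen with earlier results of these data known. Alternatives were other scalings, DESeq2 1.42.0, 2 low-count filters, a replicate block and leaving out each library.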

Additional observations from a re-analysis of the deposited data

How the results depend on the processing

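miR-141-3p, miR-141-5p and miR-200b-5p had at most 11 counts in a library, so their values are the least precise. The 5 members called became between 1 and 6 when each library was left out, with 1 without morphine replicate 1. The 6 came without saline replicate 1, where 239 of 1344 miRNAs were called, 121 of them higher. With morphine replicate 1 and saline replicate 2 both left out, an alternative added after seeing the data, 3 were called. Those 3 were miR-200a-3p (1.63), miR-200a-5p (3.35) and miR-429-3p (3.11), while 458 of all 1273 miRNAs then fitted were called, 251 of them higher. Under the other alternatives 4 or 5 were called, and miR-200b-3p dropped out with a minimum of 10 counts. The 1 member at an adjusted p under 0.05 became between 0 and 4 when each library was left out. The 4 came without saline replicate 1 or saline replicate 2, where 94 of 1344 and 386 of 1328 miRNAs passed the same limit. The number of members was 3 with upper quartile scaling, library totals, DESeq2 or both libraries left out. It was 0 with a minimum of 10 counts or the replicate block, where edgeR's unadjusted criteria called 4 in each case.

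Over all miRNAs the 264 calls became between 176 and 492 when each library was left out and 458 without both. The 71 miRNAs at an adjusted p under 0.05 became between 0 and 386 when each was left out, 153 with upper quartile scaling, 160 with library totals, 156 with DESeq2, 28 with a minimum of 10 counts and 378 without both libraries. The share of calls that were higher was 37.7% with upper quartile scaling and 61.5% with the replicate block, against 50.0%. The replicate block gave 32 miRNAs at an adjusted p under 0.05 and 179 by the unadjusted criteria. Same-numbered libraries had deviations that correlated at -0.23, -0.285 and 0.14 over 899 miRNAs. Differently numbered libraries were not compared in this way, so whether the numbers pair the samples is not settled.

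The log2 fold change of miR-200a-5p was called under all 14 alternatives. The sign turned for miR-200c-3p with upper quartile scaling (-0.0363), library totals (-0.0398), both libraries left out (-0.84) and when single libraries were left out (-0.56 to 1.496). It also turned when single libraries were left out for miR-141-3p (-1.37 to 0.68). The fitted values of miR-141-5p, at or under 3 counts in each library, ran from -0.19 to 3.15 and are not read as fold changes. The difference in the 5p share of miR-200a ranged from 7.64 to 13.8 percentage points over these, and that of miR-200b from 1.04 to 1.32. The cause of these differences was not tested. Of the 10 closest miRNAs, 8 were kept with log2(CPM + 10), and 6 with a minimum of 1000 counts, which removes the other 4 by construction.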
